A study of Mus musculus with 8 samples.

Results

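The cell-cycle module described here is a set of 40 genes, chosen by name from the 32285 genes counted in leukocytes sorted from the mouse brain. It was followed through every cell type and every library as summed unique molecular identifiers (UMIs, 1 per captured transcript), as CPM (UMIs scaled to a common library total), and as the share of cells in which at least 3 of the 40 genes were detected. The 8 libraries came from WT mice of the C57BL/6J strain and from the App NL-G-F strain, in which the endogenous App gene was given a humanized amyloid-β sequence with the Swedish, Arctic and Iberian mutations of familial Alzheimer's disease. All mice were 16 weeks old per the labels. In each genotype there was 1 library for control mice given water, 1 for acute colitis (2% DSS in the drinking water for 7 days), 1 for chronic colitis (3 cycles of 2% DSS, each of 5 days and alternating with water), and 1 for food allergy to ovalbumin. Cells were taken from the parenchyma after perfusion, stained with hashtag antibodies that mark the samples pooled in a library, sorted for CD45.2, and profiled with the 10x Genomics 5′ kit.

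After cell calling, 50088 cells were kept, between 4879 and 7199 per library. They held between 25626190 and 54618574 UMIs per library, with a median of 2775.5 to 4130 UMIs per cell. Each condition was 1 library, so conditions were compared over hashtag groups, of which there were 30, or by fits that average over genotype or treatment. The labels do not say that a hashtag group is a mouse, so p-values over these groups measure the spread between pooled samples, which may be technical. For App NL-G-F chronic colitis the study names fewer mice than there are hashtag groups, so some groups may share an animal there and p-values over them may be too small. Pairs of libraries shared between 34 and 72 cell barcodes, where 35.9 to 68.4 would be shared by list size alone. The hashtag groups also fell into 14 with low and 16 with high immediate-early gene expression in T cells (at most 1745 and at least 2985 CPM of 10 such genes), a difference that ran across conditions, and values within each set are given where it bears on a comparison.

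Dividing cells pass through a fixed order of phases. In G1, origins of replication are licensed by loading the Mcm2-7 helicase; in S phase the DNA is copied, which needs deoxynucleotides and the sliding clamp; in G2 and mitosis the cyclin B and Cdk1 kinase, the Aurora and Polo kinases and the spindle motors separate the chromosomes, and the anaphase-promoting complex then destroys the cyclins. Genes of the S phase programme are largely under E2F factors, and genes of the G2/M programme under the MuvB complex with B-Myb and Foxm1, which acts through the cell cycle homology region (CHR) and CCAAT boxes. In adult leukocytes, division is known mainly from the precursors in the bone marrow and from activated lymphocytes, and mature neutrophils do not divide.

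The 40 genes were grouped by role. The licensing and helicase group held Mcm2, Mcm3, Mcm4, Mcm5, Mcm6 and Mcm7, the subunits of the replicative helicase, with Cdc6, which loads it, Cdc45, which activates it, and Gmnn, the inhibitor of relicensing. Nucleotide supply and DNA synthesis held Pcna, the sliding clamp, Pclaf, a protein bound to it, Tyms and Tk1, which make thymidylate, Rrm1 and Rrm2, the ribonucleotide reductase subunits, and Ung, which removes uracil from DNA. Chromatin held Hells, a chromatin remodeller, Uhrf1, which guides maintenance methylation, and H2afx, a histone H2A variant marked at DNA breaks. The cyclin group held Cdk1, Ccna2, Ccnb1 and Ccnb2. The mitotic kinase, checkpoint and ubiquitin ligase group held Aurka, Aurkb, Plk1, Bub1, Birc5 (survivin, a partner of Aurora B), Cdc20, the activator of the anaphase-promoting complex, and Ube2c, its ubiquitin-conjugating enzyme. The chromosome, centromere and spindle group held Mki67 and Top2a, which act on mitotic chromosomes, the centromere genes Cenpa, Cenpe and Cenpf, the spindle genes Tpx2, Nusap1, Kif11 and Kif23, and Stmn1, a microtubule destabilizer. By phase, 18 genes were taken as S members and 20 as G2/M members, with Stmn1 and H2afx in neither.

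The promoters of the module were examined for the motifs of these programmes, because the S and the G2/M members differed between cell types below. Windows of 300 bases (250 before and 50 after the transcription start) were found in RefSeq (GRCm38.p6) for 33 of the 40 members, 35 windows in all. An E2F motif (TTTCCCGC, TTTGGCGC or TTTCGCGC, either strand) was present in 25.7% of member windows and in 1.84% of all 32851 windows in the table. A CHR motif (TTTGAA or TTCGAA) was present in 45.7% and 19.2%, and a CCAAT box (CCAAT) in 80.0% and 37.4%. Of the 16 S members with a window, 50.0% had an E2F motif and 18.8% a CHR, whereas of the 17 G2/M members 5.88% had an E2F motif and 76.5% a CHR. A match is a description of these letters and not of a bound site. Mcm6 and Mcm5 are shown for the S members with E2F motifs, Cdk1 because its window held both kinds, and Top2a, Ube2c and Mki67 for the G2/M members with CHR motifs. Each line gives the 160 bases before the start site on the gene's strand, 5′ to 3′, and the capitals mark E2F, CHR and CCAAT matches on either strand. Where 2 E2F matches overlap, in Mcm6 and Mcm5, they form 1 run of capitals. The stretches lie at chr1:128359706-128359865 (Mcm6, minus strand), chr8:75109349-75109508 (Mcm5, plus), chr10:69352913-69353072 (Cdk1, minus), chr11:99024190-99024349 (Top2a, minus), chr2:164769769-164769928 (Ube2c, plus) and chr7:135716380-135716539 (Mki67, minus).
Mcm6: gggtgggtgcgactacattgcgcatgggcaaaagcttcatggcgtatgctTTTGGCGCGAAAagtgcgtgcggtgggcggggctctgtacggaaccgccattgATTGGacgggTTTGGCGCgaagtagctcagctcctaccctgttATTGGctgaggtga
Mcm5: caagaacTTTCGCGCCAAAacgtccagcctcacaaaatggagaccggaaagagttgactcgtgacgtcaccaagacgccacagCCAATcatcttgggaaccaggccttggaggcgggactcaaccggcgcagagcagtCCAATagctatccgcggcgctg
Cdk1: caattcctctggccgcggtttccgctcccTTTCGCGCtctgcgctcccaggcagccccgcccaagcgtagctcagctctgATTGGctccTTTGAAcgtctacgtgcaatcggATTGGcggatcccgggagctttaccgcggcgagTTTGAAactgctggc
Top2a: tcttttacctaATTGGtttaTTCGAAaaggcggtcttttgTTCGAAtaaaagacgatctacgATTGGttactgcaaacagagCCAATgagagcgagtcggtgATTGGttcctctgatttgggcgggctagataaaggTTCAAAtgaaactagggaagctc
Ube2c: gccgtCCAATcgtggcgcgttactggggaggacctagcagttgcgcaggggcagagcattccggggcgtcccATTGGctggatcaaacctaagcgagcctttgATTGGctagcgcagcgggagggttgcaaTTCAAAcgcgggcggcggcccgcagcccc
Mki67: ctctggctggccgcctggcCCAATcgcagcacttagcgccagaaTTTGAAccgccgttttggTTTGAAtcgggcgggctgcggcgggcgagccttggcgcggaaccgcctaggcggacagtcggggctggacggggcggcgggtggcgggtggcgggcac

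Of the 50088 cells, 14418 (28.8%) had at least 3 of the 40 genes at their own depth, 6616 (13.2%) had at least 10, and 14255 (28.5%) had 0. The module made up 1021366 of the 298904562 UMIs in cells. It was concentrated in blood cell precursors. The 6 precursor gates (hematopoietic progenitors, erythroid, monocytic and neutrophil precursors, pro-B and large pre-B cells, and Vpreb3+ B precursors) held 14.6% of cells, 32.8% of the cells with at least 3 members and 63.7% of the module's UMIs. The gates were marker rules applied to each cell, so the shares of cells with a defining marker describe a gate and do not test it. Mpo, which encodes the myeloperoxidase of early neutrophil granules, was detected in 97.4% of neutrophil precursors, Vpreb1, a surrogate light chain gene, in 99.4% of pro-B and large pre-B cells, and Car2, carbonic anhydrase 2, in 99.0% of erythroid precursors. Because a deeper cell shows more genes, each cell was also thinned to 1500 UMIs, and shares of cells with at least 3 members by cell type are given at that depth unless stated otherwise. Cells that fitted several gates (4044, called mixed) held 14.3% of the cells with at least 3 members and belong to no type below.

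Neutrophil precursors had the highest share, 92.2% ± 4.2 (SD, n = 7 libraries with at least 20 cells), with a lowest library of 84.9%, a median of 92.3% and a highest of 98.3%. Monocytic precursors followed at 85.8% ± 10.2 (n = 7, 67.9 to 94.7%), erythroid precursors at 81.2% ± 2.0 (n = 6, 78.6 to 83.3%), and pro-B and large pre-B cells at 77.8% ± 12.4 (n = 8, 58.5 to 93.9%). Hematopoietic progenitors reached 57.0% ± 8.8 (n = 7, 44.3 to 70.8%). These 5 gates lay above every library of the Vpreb3+ B precursors, at 31.6% ± 6.8 (n = 8, 15.5 to 38.2%). Mature neutrophils were at the other end, with 0.587% ± 0.76 (n = 8, 0 to 2.01%), with a median of 4328 UMIs per cell before thinning. They serve as the background for free RNA, since empty droplets held between 112 and 223 CPM of Mki67.

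Between these ends stood basophils (28.9% ± 15.9, n = 5), monocytes (median 24.3%, 4.58 to 48.9%, n = 8), plasmacytoid dendritic cells (19.3% ± 7.0, n = 8) and immature neutrophils (18.5% ± 7.0, n = 8), the last marked by Camp and Ngp, genes of secondary granules. Conventional dendritic cells of type 1 and type 2 were at 10.4% ± 4.0 and 10.2% ± 5.7. The mature lymphocytes were low, with B cells at 6.73% ± 1.7, NK cells at 6.70% ± 2.0, CD8 T cells at 6.21% ± 1.2, CD4 T cells at 5.84% ± 1.5 and γδ T cells at 4.35% ± 2.5 (n = 8 each). Type 2 innate lymphoid cells (ILC2) were at 2.91% ± 0.67 (n = 8). Their highest library (3.76%) lay below the lowest of B cells (4.43%), NK cells (4.05%) and CD8 T cells (4.02%). It lay above the lowest of CD4 T cells (2.94%) and γδ T cells (1.16%). Plasma cells were at 1.29% ± 1.5 and fibroblasts at 0.714% ± 1.4 (n = 4), close to the background. At their own depth these types had 20.7% and 21.2%, with a median of 19585.5 UMIs per plasma cell and 5304 per fibroblast. Microglia were few in these sorts (90 cells in all), and the 24.4% of them with at least 3 members at their own depth rest on that number.

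**Figure D1:**
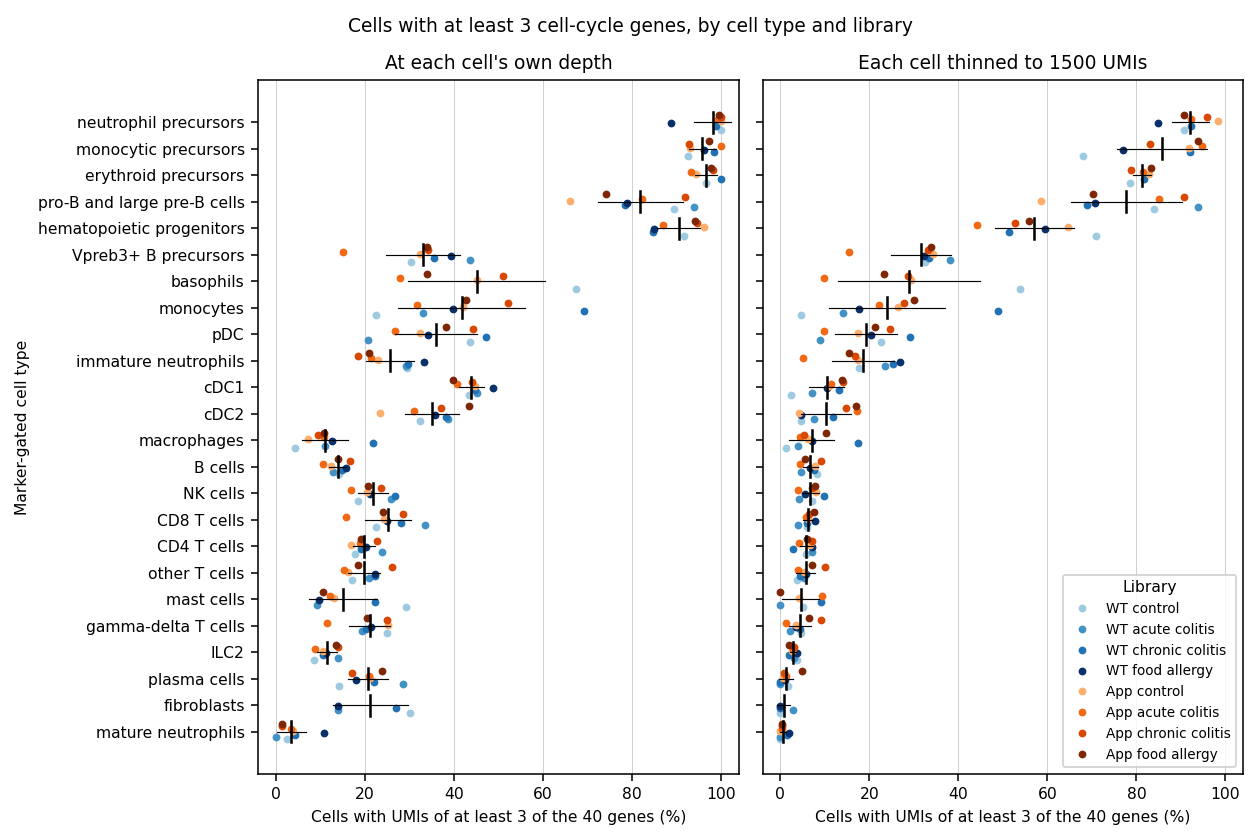
Share of cells with at least 3 of the 40 cell-cycle genes (percent, x axis) in each cell type, with 1 point per library of at least 20 cells and the mean ± SD over libraries, at each cell's own depth and after thinning to 1500 UMIs. After thinning the 6 precursor gates are at the top, from 92.2% in neutrophil precursors to 31.6% in Vpreb3+ B precursors, and thinning brings plasma cells from 20.7% to 1.29%.

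The order of the 24 types was tested between neighbours, within libraries, with an exact two-sided sign-flip permutation test. None of the 23 neighbouring pairs passed after Benjamini-Hochberg adjustment, with or without thinning. The smallest p that 8 libraries allow is 0.00781, so no pair could pass this adjustment alone. The order itself came from the same means. The widest step was from hematopoietic progenitors to Vpreb3+ B precursors, 26.4 percentage points ± 7.1 (SD), higher in 7 of 7 libraries (exact permutation p = 0.0156, adjusted p = 0.299). From immature neutrophils to type 1 dendritic cells the step was 8.12 points, higher in 7 of 8 libraries (exact permutation p = 0.0391, adjusted p = 0.299). B cells and NK cells differed by 0.032 points ± 1.6, less than their spread.

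Within a lineage the module stepped down with maturation, here described by the libraries' ranges of summed CPM. Neutrophil precursors had 6582 to 7255 CPM (median 6854, n = 7), immature neutrophils 630 to 3085 (median 2084, n = 8) and mature neutrophils 75.9 to 267 (median 106, n = 8). The 3 ranges did not overlap. In the B lineage, pro-B and large pre-B cells had 11680 to 16640 CPM (median 13147), Vpreb3+ B precursors 5731 to 12308 (median 11601) and B cells 1095 to 3156 (median 2135). There the lower precursor gate reached into the range of the upper one, and both lay above B cells. By CPM the Vpreb3+ B precursors stood above neutrophil precursors and by share far below them. Vpreb3+ B precursors, with Rag1 in 33.0% of cells, had 26.1% of cells with 10 or more members after thinning and 35.2% with 0, whereas in neutrophil precursors 28.2% had 10 or more and 1.8% had 0. In the Vpreb3+ gate 2.87% of thinned cells had 5 to 9 members, whereas 52.4% of neutrophil precursors did. In these sums, fewer cycling cells and fewer transcripts per cycling cell cannot be told apart.

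Among the roles, the most abundant members are described. A UMI of the 5′ kit marks 1 transcript whatever its length, so CPM is not divided by gene length here, and capture can differ between genes. In the licensing group Mcm6 had the most UMIs (35176), and was at 402 ± 56.5 CPM in pro-B and large pre-B cells (n = 8, lowest 313, median 401, highest 476) and 360 ± 56.3 in erythroid precursors (n = 6). It was still at 97.4 ± 18.2 CPM in CD8 T cells, 58.6 ± 7.69 in ILC2 and 45.0 ± 16.3 in macrophages, against 4.37 ± 4.01 in mature neutrophils. Mcm3 followed the same precursors, with 298 ± 46.1 CPM in pro-B and large pre-B cells, 253 ± 28.9 in neutrophil precursors and 44.5 ± 5.01 in CD8 T cells. Pcna, the clamp, was similar, with 343 ± 32.3 CPM in pro-B and large pre-B cells and 45.4 ± 7.35 in ILC2. In each of these types the mean of Mcm6 and Pcna was more than that in mature neutrophils, where Pcna was at 11.3 ± 4.46 CPM.

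Pclaf and Rrm2 were nearer to 0 in ILC2. Pclaf was at 1073 ± 104 CPM in pro-B and large pre-B cells (lowest library 948, highest 1288), 454 ± 30.9 in neutrophil precursors and 10.9 ± 14.7 in ILC2, and had 0 UMIs in mast cells in all 7 libraries. Rrm2 was highest in erythroid precursors, at 690 ± 284 CPM (n = 6, lowest 293, median 749, highest 1068), and was at 9.54 ± 6.99 CPM in ILC2. Of the chromatin genes, H2afx was led by Vpreb3+ B precursors, at 1605 ± 323 CPM (n = 8, lowest 900, median 1677, highest 2004), against 1277 ± 264 in pro-B and large pre-B cells and 429 ± 32.3 in neutrophil precursors. Uhrf1 was at 297 ± 40.5 CPM in pro-B and large pre-B cells and at 118 ± 10.6 in erythroid precursors.

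Among the G2/M members, Ccna2 was at 414 ± 77.7 CPM in pro-B and large pre-B cells and 397 ± 140 in erythroid precursors, a difference smaller than either SD, and Ccnb2 was at 299 ± 75.2 and 270 ± 101 in the same gates. Both cyclins had 0 UMIs in fibroblasts in all 4 libraries. Ube2c was the most uneven of the abundant members. It reached 1420 ± 696 CPM in erythroid precursors (n = 6, lowest 458, median 1437, highest 2189), 793 ± 257 in pro-B and large pre-B cells and 204 ± 50.1 in neutrophil precursors, where immature neutrophils had 237 ± 88.4. Birc5 was at 615 ± 184 CPM in erythroid precursors and 102 ± 31.8 in immature neutrophils. Stmn1, the most abundant member with 103259 UMIs, was at 1377 ± 107 CPM in pro-B and large pre-B cells, 1158 ± 280 in Vpreb3+ B precursors and 770 ± 48.0 in neutrophil precursors. Mki67 was at 603 ± 144 CPM in erythroid precursors, 571 ± 130 in pro-B and large pre-B cells and 520 ± 126 in Vpreb3+ B precursors, gates that overlapped in their libraries. Top2a was at 542 ± 77.5, 510 ± 140 and 338 ± 72.5 CPM in pro-B and large pre-B cells, Vpreb3+ B precursors and erythroid precursors.

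Over the whole module, 25 of the 40 members had their highest mean in pro-B and large pre-B cells and 12 in erythroid precursors. Licensing genes were mostly highest in the former (7 of 9), and the nucleotide group was divided between 3 there and 4 in erythroid precursors (Rrm1, Rrm2, Tk1 and Tyms). The other exceptions were H2afx and Nusap1, a spindle assembly gene, in Vpreb3+ B precursors, and Kif23 in mast cells. Kif23, a kinesin of the central spindle, was at 130 ± 35.8 CPM in mast cells (n = 7, lowest 102, median 111, highest 196) and at 101 ± 23.2 in pro-B and large pre-B cells. The mast cell gate, with Cpa3 in 98.4% of cells, held little of the rest of the module. Ube2c and Birc5 had 0 UMIs there in all 7 libraries, and Mki67 averaged 1.76 ± 4.65 CPM. The other 25 members outside those named by abundance had highest means from 45.0 CPM (Bub1, a checkpoint kinase) to 424 CPM (Cenpa, the centromeric histone H3). Counted by UMIs, Kif23 was 17.9% of the module in mast cells.

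**Figure D2:**
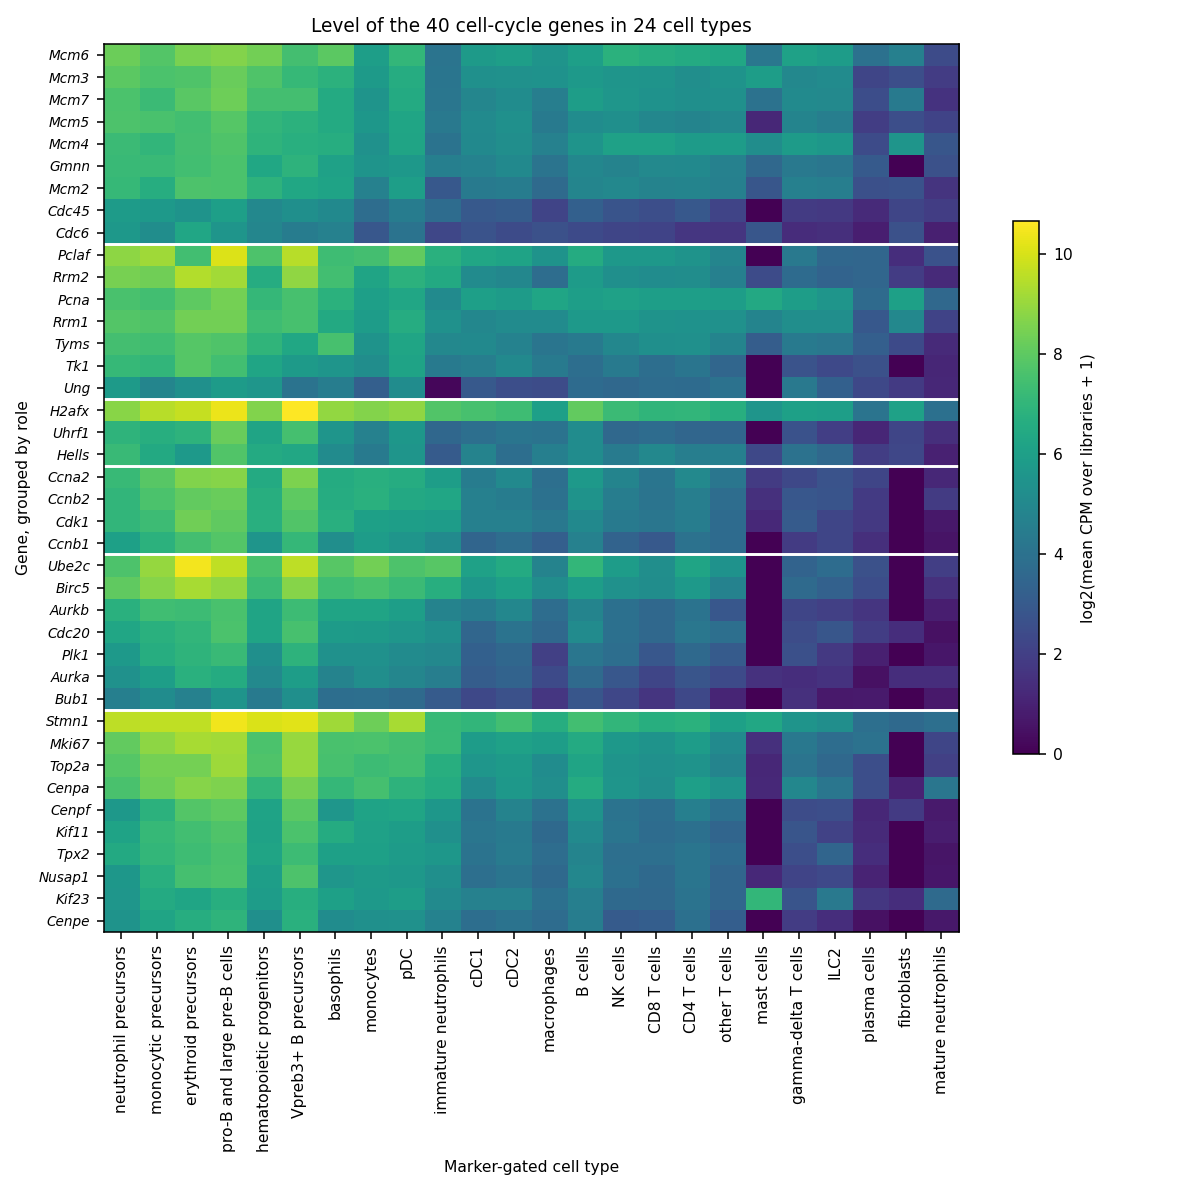
Mean CPM over libraries of each of the 40 genes (rows, grouped by role) in each cell type (columns), on a log2 scale and not scaled by gene. The precursor columns are filled from top to bottom, mature neutrophils and fibroblasts are low in most rows, and Kif23 is the only row with its maximum in mast cells (130 CPM).

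The members varied together. Over 182 sums, 1 per cell type and library, the log2(CPM + 10) of a gene was correlated with that of the other 39 members together, as a description, since sums from a library share its depth and its free RNA. Pearson's r ran from 0.692 for Ung, 0.718 for Kif23 and 0.803 for Mcm4 to 0.957 for Top2a and 0.960 for H2afx. Among 6480 genes outside the module, Cdca8 (r = 0.958), a partner of Aurora B, Smc2 (0.957), a condensin subunit, and Incenp (0.952), the scaffold of the same Aurora B complex, were the most alike. They were followed by Knl1, Spc24, Tacc3, Asf1b, Cdca3, Hist1h1b and Ncapd2 (0.946 to 0.931), genes of the kinetochore, spindle, histone supply and condensin among them.

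Other genes of the cell cycle were read from lists by function, and all 53 were found. The 5 cytokinesis genes (Anln, Ect2, Prc1, Kif20b and Racgap1) followed the module with a median r of 0.907, the 5 origin firing genes with 0.826 and the 9 checkpoint genes with 0.802. E2F and pocket proteins had a median r of 0.737, D and E cyclins with their kinases 0.655, and MuvB, B-Myb and Foxm1 0.602. CDK inhibitors had a median r of 0.020 and the quiescence-linked genes −0.211. Single genes of a list went their own way. Of the D cyclins, which start the cycle in response to growth signals, Ccnd3 was highest in pro-B and large pre-B cells (1050 ± 248 CPM), Ccnd1 in plasmacytoid dendritic cells (397 ± 96.5) and Ccnd2 in γδ T cells (288 ± 58.4). Of the pocket proteins, Rbl1 followed the module (r = 0.829) and Rbl2, which is known from resting cells, did not (r = −0.144), and the latter was highest in γδ T cells (157 ± 18.7 CPM). Of the CDK inhibitors, Cdkn2c was highest in Vpreb3+ B precursors (85.7 ± 21.6 CPM) and Cdkn1a, which encodes p21, in mast cells (361 ± 207 CPM, n = 7). Btg1, an antiproliferative gene, was highest in B cells (1716 ± 202 CPM).

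The balance between S and G2/M members differed between types. It was taken as log2 of S over G2/M UMIs in cells with at least 3 members, and each type was tested against the median of the types in the same library (exact two-sided sign-flip permutation, Benjamini-Hochberg over 21 types). A library entered with at least 50 UMIs of S and G2/M members in those cells, whatever its number of cells. A negative value means more G2/M than S UMIs. Immature neutrophils were the farthest toward G2/M at −1.52 ± 0.32 (n = 8, lowest −2.09, highest −0.98), below the median in 8 of 8 libraries (exact permutation p = 0.00781, adjusted p = 0.0273). Monocytes (−1.18 ± 0.42), Vpreb3+ B precursors (−0.88 ± 0.33) and erythroid precursors (−0.67 ± 0.30) also lay below the median in 8 of 8 libraries, with the same p values. The erythroid precursors numbered 9 cells in WT acute colitis and 8 in WT food allergy, and neutrophil precursors 18 in WT acute colitis. Toward S lay neutrophil precursors at 0.66 ± 0.33 (lowest 0.25, highest 1.28) and CD8 T cells at 0.70 ± 0.62, above the median in 8 of 8 libraries (exact permutation adjusted p = 0.0273), and γδ T cells at 1.22 ± 0.45 (7 of 7, adjusted p = 0.0469). Neutrophil precursors and immature neutrophils, successive gates of a lineage, thus stood on opposite sides in 8 of 8 libraries, and in 7 of 7 with at least 20 cells of each. The role sums showed the same step: from neutrophil precursors to immature neutrophils, licensing genes went from 1506 ± 133 to 130 ± 44.3 CPM, and mitotic kinases with their partners from 767 ± 115 to 464 ± 153 CPM. With at least 20 cells of the type required in a library, an alternative chosen after seeing the data, 4 of 20 types passed, namely immature neutrophils, monocytes, Vpreb3+ B precursors and CD8 T cells (exact permutation adjusted p = 0.0391 each). Erythroid precursors were then below the median in 6 of 6 libraries (exact permutation adjusted p = 0.0694, smallest p possible 0.0312), and neutrophil precursors and γδ T cells above it in 7 of 7 (adjusted p = 0.0521 each, exact permutation). With at least 5 members required, erythroid precursors, CD8 T cells and γδ T cells no longer passed, and with 1 more marker per gate CD8 T cells did not (exact permutation adjusted p = 0.0547). The other 14 types did not pass, among them ILC2 (from −0.40 to 2.64) and pro-B and large pre-B cells (−0.12 ± 0.20).

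B cells did not pass as a type (−0.44 ± 0.59, exact permutation adjusted p = 0.0895), and their libraries were divided. In the 6 libraries without acute colitis the balance was between −0.55 and −0.83. It was 0.70 in WT acute colitis and 0.29 in App NL-G-F acute colitis. The same libraries stood out in the level of the module in B cells. In WT mice its summed CPM was 3156 under control, 1095 with acute colitis, 1896 with chronic colitis and 2161 with food allergy, and in App NL-G-F mice 2126, 1143, 2466 and 2143 in the same order. Both acute colitis libraries were below the other 6. B cells with at least 10 members made up 1.91% (95% exact interval 1.22 to 2.82, counting error only) and 1.93% (1.23 to 2.89) in the acute colitis libraries, against 4.62% (3.38 to 6.16) and 4.11% (2.88 to 5.67) in the controls of the same genotypes. Those few cells held between 63.1% and 86.1% of the module's UMIs in B cells.

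In an edgeR quasi-likelihood fit on counts summed per library and cell type, with genotype and treatment as additive terms and Benjamini-Hochberg adjustment over all genes tested, 19 of 40 members were lower in B cells in acute colitis than in control, averaged over genotypes, where 0.906% of all 10041 genes tested were called in either direction. The median log2 fold change of the 40 members was −1.10, and that of all genes 0.00. Ccna2, with 101 and 70.0 CPM in the WT and App NL-G-F control libraries and 17.2 and 18.6 CPM in acute colitis, had a log2 fold change of −2.17 ± 0.21 (SE, edgeR adjusted p = 0.00227). Mki67 had 130 and 121 CPM in the controls and 28.3 and 38.1 CPM in acute colitis (−1.84 ± 0.18, edgeR adjusted p = 0.00227). Both acute colitis values of each gene lay below both control values. Kif11, the motor that separates the spindle poles, had 50.0 and 40.3 against 8.22 and 8.97 CPM (−2.31 ± 0.24), Cdk1 59.9 and 42.3 against 7.96 and 10.3 (−2.42 ± 0.27), and Cenpf 57.0 and 46.2 against 12.3 and 15.4 (−1.82 ± 0.23). Rrm2 was the only S member among the 19 (−1.29 ± 0.21), and H2afx and Stmn1 belong to neither phase. The others, all G2/M members, were Birc5, Ccnb1, Ccnb2, Cdc20, Cenpa, Cenpe, Kif23, Nusap1, Top2a, Tpx2 and Ube2c.

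The hashtag groups of the control libraries were far apart. Hashtag group 5 of WT control, with 395 B cells, had 6661 CPM of the module, where groups 4, 6 and 7 of that library had 492, 932 and 520 CPM. Hashtag group 5 of App NL-G-F control was also the highest of its library, at 3398 CPM against 2175, 1114 and 796. The 6 acute colitis groups with at least 20 B cells lay between 688 and 1406 CPM, within the range of the other control groups. With group 5 left out of WT control, 0 of 40 members passed (0.0101% of all genes called) and their median log2 fold change was −0.29. With group 5 left out of both controls, 0 passed (0.00% of all genes called) and the median was 0.08. Within the high immediate-early set, which holds neither group, the median was 0.51, 0 members were lower and 1, Ube2c, was higher (1.60, edgeR adjusted p = 0.0463), where 0.367% of genes were called. Both fits without group 5 were chosen after seeing the data. The number lower was 2 without WT acute colitis (0.0966% of genes called), 5 without App NL-G-F acute colitis (0.165%), 8 without WT control (0.279%) and 25 without App NL-G-F control (3.03%). Markers of B precursors were present in the B cell gate of every library. The 8 such genes summed to 1259 to 1862 CPM, most of it Vpreb3 (1212 to 1743 CPM), and 1 or 2 of them were at 0 UMIs, and the sum was 1660 and 1361 CPM in the controls against 1262 and 1259 in acute colitis. Single genes differed more than this sum. Rag1, a subunit of the recombinase that rearranges antigen receptor genes, was at 29.3 CPM in the WT control library and 11.2 in that of App NL-G-F mice, and at 5.39 and 0.961 CPM in acute colitis. Rag2, its partner, was at 17.4 and 9.72 CPM in the controls, at 1.80 in WT acute colitis and at 0 UMIs in App NL-G-F acute colitis. Among the B cells with at least 10 members, 29.5% of 44 in WT control and 51.4% of 35 in App NL-G-F control had Ms4a1, which encodes the mature B cell antigen CD20, against 70.8% of 24 and 95.7% of 23 in acute colitis. Markers of maturity and of other lineages differed in the gate as well, and not all in 1 direction. Of the maturity markers, Ighd, the heavy chain of IgD, was at 240 and 236 CPM in the controls and 133 and 136 in acute colitis, whereas Ms4a1 was at 1310 and 1617 CPM in the controls and 2313 and 2057 in acute colitis. Fcer2a, the CD23 gene, went from 175 to 236 CPM in WT mice and from 219 to 153 in App NL-G-F mice, and Cr2, the CD21 gene, from 60.7 to 63.2 and from 58.3 to 40.7. S100a8, an abundant neutrophil gene, went from 2.89 to 8.99 CPM in WT mice and from 78.7 to 229 CPM in App NL-G-F mice, where it was in 15.4% and 40.8% of B cells. Jchain, a plasma cell gene, was at 35.9 and 10.8 CPM in WT control and acute colitis and at 36.4 and 974 CPM in those of App NL-G-F. The part of any of these in the difference was not tested.

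**Figure D3:**
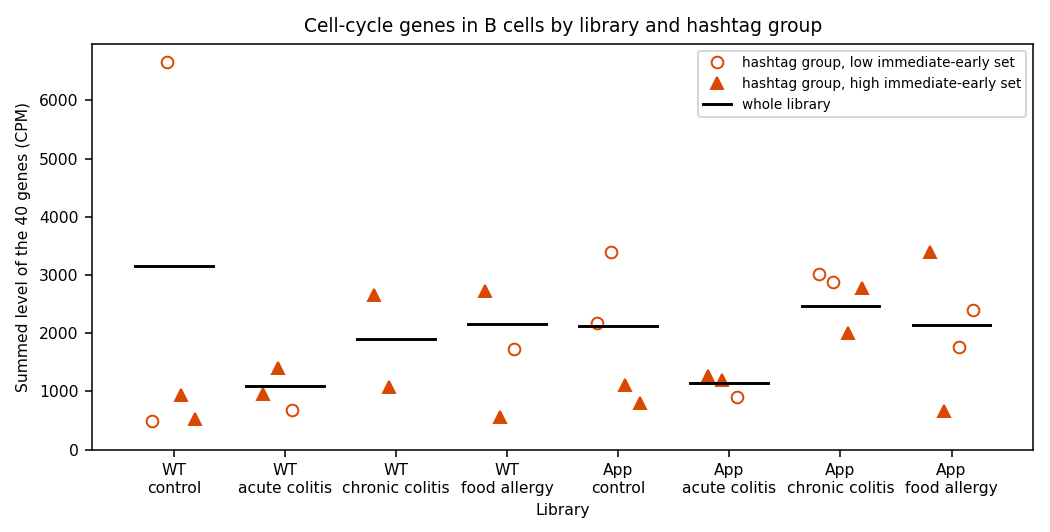
Summed CPM of the 40 genes in B cells (y axis) for each hashtag group with at least 20 B cells, by library, with low and high immediate-early sets marked. Hashtag group 5 of WT control is at 6661 CPM and the other 3 groups of that library are at 492 to 932 CPM.

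In the other fitted types between 0 and 3 members per contrast passed the same edgeR test (Benjamini-Hochberg adjusted p of at most 0.05), and the 3 treatment contrasts share their control libraries. In acute colitis, besides B cells, 2 of 35 members tested were higher in type 2 dendritic cells (1.74% of genes called). Over all 13 types together, 0.509% of tests were called in acute colitis, 0.305% in chronic colitis, 0.235% in food allergy and 0.220% for genotype. In chronic colitis, 2 of 35 were higher in type 2 dendritic cells (0.330% called) and 3 of 29 in ILC2 (1.18% called). In food allergy it was 1 of 35 in type 2 dendritic cells (0.0450% called), and for genotype 1 of 35 in type 2 dendritic cells (0.120% called) and 2 of 29 in ILC2 (0.501% called). No member passed in CD4 T, CD8 T, NK or γδ T cells, monocytes, macrophages, or immature or mature neutrophils in any of the 4 contrasts by edgeR. Nor did any in Vpreb3+ B precursors or pro-B and large pre-B cells. The members tested after the filter on low counts ranged from 7 in mature neutrophils to 40. Neutrophil precursors were not fitted, since WT acute colitis had 18 such cells, and type 1 and plasmacytoid dendritic cells, plasma cells and other T cells were not among the types chosen for the fits. These counts moved with the hashtag groups used. In acute colitis, without group 5 of WT control, 8 of 34 members were higher in type 2 dendritic cells (2.38% of genes called) and none passed elsewhere. Without group 5 of both controls it was 8 of 34 there (2.37%), 1 of 29 in ILC2 (1.53%) and 1 of 40 in monocytes (3.22%), all higher. Within the high immediate-early set 12 of 33 were higher in type 2 dendritic cells (3.96%), 4 of 24 in ILC2 (5.13%) and 1 of 15 in macrophages (3.52%). In chronic colitis, within the high set, there were 50 member calls over all types (2.59% of all tests called). Among them, 24 of 38 members were higher in monocytes (9.40% of genes called), 16 of 38 in B cells (1.28%) and 6 of 33 in type 2 dendritic cells (1.23%). Without group 5 of both controls it was 14 of 40 in monocytes (5.71%), 5 of 40 in B cells (0.576%), 4 of 34 in type 2 dendritic cells (0.689%) and 4 of 29 in ILC2 (1.79%). In food allergy, within the high set, there were 17 member calls over all types (0.716% of all tests called). Among them, 8 of 38 were higher in B cells (0.173%) and 6 of 33 in type 2 dendritic cells (0.302%).

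In type 2 dendritic cells, marked by Cd209a (84.0% of cells), Pclaf passed in all 4 contrasts. It was at 12.5 CPM in WT control and 13.4 in App NL-G-F control, 46.6 and 119 in acute colitis, 68.3 and 157 in chronic colitis, and 36.5 and 111 in food allergy. All 6 treated libraries lay above both controls, and in each treatment the App NL-G-F library was above the WT library. The log2 fold changes were 2.58 ± 0.32 in acute colitis, 3.01 ± 0.34 in chronic colitis, 2.32 ± 0.34 in food allergy and 1.29 ± 0.20 for App NL-G-F against WT. These values came from between 7 and 73 Pclaf UMIs per library and from 34 to 135 cells. In WT chronic colitis 2.94% of the 34 cells held all 19 Pclaf UMIs, and in App NL-G-F chronic colitis 16.7% of 54 cells held 68. Mcm6 in acute colitis (21.2 and 46.0 CPM in the controls, 71.1 and 86.4 in acute colitis, log2 fold change 1.43 ± 0.31) and Tk1 in chronic colitis (8.72 and 7.66 CPM against 43.1 and 64.5, 2.58 ± 0.50) were the others. With 1 more marker required of each cell, none of these Pclaf, Mcm6 and Tk1 calls passed, with Pclaf at an edgeR adjusted p of 0.131 in acute colitis. By DESeq2 Pclaf did not pass in food allergy (adjusted p = 0.150) or for genotype (0.307), and in cells with exactly 1 hashtag it did not by edgeR either (adjusted p = 0.0567 and 0.0558). Its food allergy call was lost without the WT or the App NL-G-F food allergy library (edgeR adjusted p = 0.135 and 0.281), its chronic colitis call without App NL-G-F chronic colitis (0.0616), and its genotype call without any 1 of the acute colitis and food allergy libraries (0.109 to 0.328).

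In ILC2, marked by Gata3 (81.6% of cells), Ube2c was at 1.17 and 4.35 CPM in the WT and App NL-G-F control libraries and at 5.36 and 46.4 in chronic colitis (log2 fold change 3.15 ± 0.56). Stmn1 was at 14.7 and 13.1 CPM in control and 44.5 and 78.7 in chronic colitis (2.22 ± 0.40). Ccnb2 had 0 and 1 UMI in the controls and 3 and 33 in chronic colitis, so that its fitted fold change has no firm base. The highest value of each gene was in App NL-G-F chronic colitis, where 3.07% of 423 cells held the 66 UMIs of Ube2c. Without that library the edgeR adjusted p was 0.415 for Ube2c, 0.113 for Stmn1 and 0.488 for Ccnb2 in chronic colitis. The genotype calls in ILC2, Ube2c (1.96 ± 0.37) and Ccnb2, were lost without it too (edgeR adjusted p = 0.565 and 0.503).

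Monocytes, known by Ly6c2 (86.9% of cells), held a shift without a call when all hashtag groups were used. In chronic colitis all 40 members were higher than in control, with a median log2 fold change of 1.42 against 0.02 for all genes. Of them, 0 passed the adjusted edgeR threshold, where 0.806% of genes did. As given above, 24 of 38 members passed within the high set (9.40% of genes called) and 14 of 40 without group 5 of both controls (5.71%). Without the App NL-G-F chronic colitis library it was 39 of 40 (8.52%). For genotype, 28 of 40 members were higher in App NL-G-F than in WT monocytes when either chronic colitis library was left out (3.02% of genes called without that of App NL-G-F and 3.12% without that of WT). Those genotype fits are not separate checks, since both rest on the same control, acute colitis and food allergy libraries. The remaining chronic colitis library is taken up by its own treatment term. In WT mice the summed CPM was 925 under control, 1771 with acute colitis, 6028 with chronic colitis and 2445 with food allergy, and in App NL-G-F mice 3834, 4846, 3526 and 4857 in the same order. WT control was the lowest library and WT chronic colitis the highest, while in App NL-G-F mice chronic colitis was below control. In immature neutrophils the shift in acute colitis was downward. All 39 members tested were lower, with a median of −0.77 against −0.01 for all genes, and 0 of 7781 genes were called by edgeR. App NL-G-F acute colitis was the lowest library, at 630 CPM from 802 cells, whereas WT acute colitis was at 2790 CPM from 48 cells, above WT control (1889) and App NL-G-F control (2066). Of the neutrophils and their precursors assigned to a hashtag group in App NL-G-F acute colitis, 1399 were in group 7 and 54 and 45 in groups 4 and 5, so that its value comes mostly from 1 pooled sample.

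Of the related genes, Ccnd2 was higher in B cells in acute colitis (log2 fold change 0.95 ± 0.14) and chronic colitis (1.02 ± 0.14), and Cdkn2c, Prc1 and Anln were lower there in acute colitis (−1.14, −1.41 and −2.01), of 48 genes tested, by the same edgeR fit (0.0797% of all genes called in B cells in chronic colitis). Without group 5 of both controls the acute colitis values were −0.38 for Cdkn2c, 0.65 for Prc1 and 0.0175 for Anln, and within the high set −0.0948, 1.35 and 1.55, none of them passing by edgeR. Cdkn1a was lower in ILC2 in acute colitis, chronic colitis and food allergy (−0.97, −1.24 and −1.41, with 1.15%, 1.18% and 1.58% of genes called) and in γδ T cells in chronic colitis and food allergy (−1.45 and −1.78, with 1.37% and 1.11% called). In ILC2 the acute colitis change of Cdkn1a, also a stress-response gene, was 2.78, upward, within the low immediate-early set (edgeR adjusted p = 0.00164). Ccnd2 was lower in γδ T cells in chronic colitis (−0.69), Klf2 higher in macrophages in acute colitis (0.89, with 1.57% called), and in type 2 dendritic cells in acute colitis Ccnd1 was higher (0.86) and Cdkn2d lower (−1.62).

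The share of cells with at least 3 members was compared between conditions over hashtag groups at each cell's own depth, for all cells, mature lymphocytes, developing B cells, and neutrophils with their precursors. Of 28 exact two-sided permutation tests, 0 passed at an adjusted p of 0.05 and 0 had an unadjusted p under 0.05. The smallest p possible in these permutation tests ran from 0.0286 to 0.333. Some of them thus could not reach 0.05, and none could pass the adjustment alone, so the count of 0 says little. The smallest p was 0.0571, for mature lymphocytes in App NL-G-F acute colitis, at 11.6% ± 0.75 (n = 3 hashtag groups, 12.4, 10.9 and 11.4%) against 16.4% ± 2.5 (n = 4, 19.8, 15.3, 13.9 and 16.7%) in App NL-G-F control (exact permutation, adjusted p = 0.92, smallest p possible 0.0286). All 3 acute colitis groups lay below all 4 control groups at that depth. After thinning they were at 5.74, 3.34 and 4.03% against 6.88, 8.08, 5.12 and 4.93%, and the groups overlapped (exact permutation p = 0.171, adjusted p = 1). Thinned neutrophils with their precursors did separate in App NL-G-F mice, at 16.7, 21.9 and 17.0% in acute colitis (36, 32 and 1391 cells). The control groups were at 26.1, 40.7, 34.3 and 44.6% (exact permutation p = 0.0571, not passing after adjustment). Over all cells, WT chronic colitis had 30.9% ± 8.5 (n = 4) against 22.1% ± 8.6 (n = 4) in WT control (exact permutation p = 0.2, adjusted p = 0.92), and App NL-G-F control had 26.3% ± 7.8 against WT control (exact permutation p = 0.457, adjusted p = 0.92). Within the low and the high sets the WT chronic colitis difference was 3.96 and 13.6 points. The low set of WT chronic colitis held groups of only 30 and 356 cells. After thinning, the shares over all cells were 15.6% ± 11.3 in WT chronic colitis and 12.4% ± 11.8 in WT control (exact permutation p = 0.486).

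Hashtag groups of a library could differ widely. In WT chronic colitis hashtag group 6 had 40.9% of 3314 cells with at least 3 members and group 7 had 20.8% of 1404. In WT control, group 5 had 34.9% of 2071 cells, with 46.5% of them in precursor gates, where the other 3 groups had 16.4 to 18.9%, with 2.69 to 7.73% in precursor gates. App NL-G-F control was alike, with 38.0% in group 5 (43.3% of its cells in precursor gates) and 22.8, 21.7 and 22.6% in the others. Group 6 of WT chronic colitis was also rich in precursors (28.5%), whereas group 7 of WT food allergy had 23.6% of cells in precursor gates and a share of 19.5%. By library the share ran from 24.1% in WT acute colitis, with 6.11% of cells in precursor gates, to 36.4% in WT chronic colitis, with 20.0%, and after thinning from 8.15% to 24.5%.

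**Figure D4:**
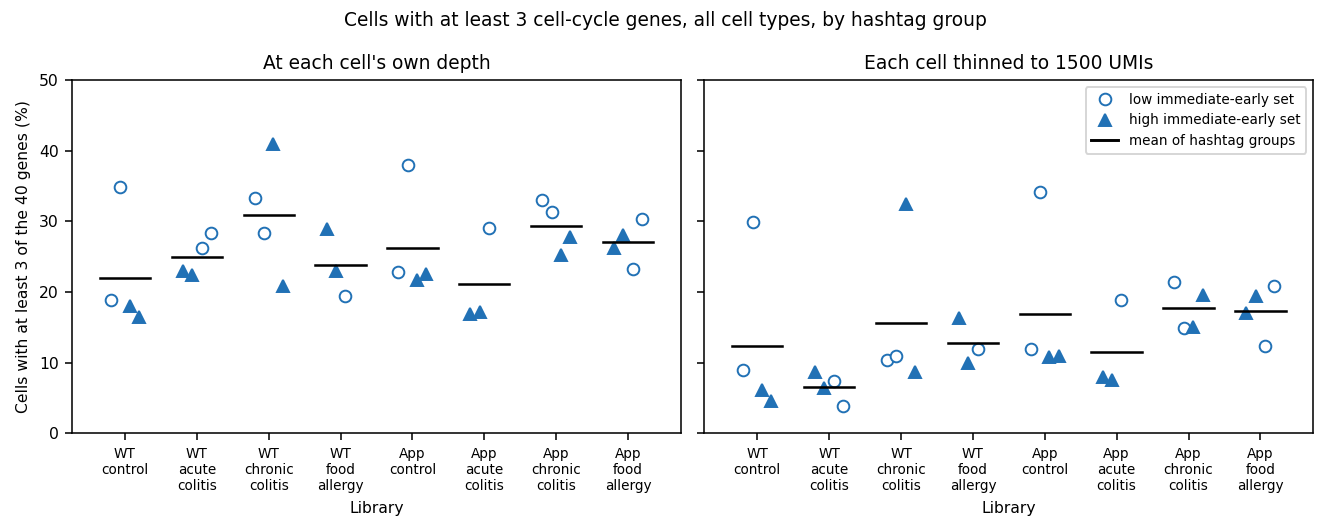
Share of all cells with at least 3 of the 40 genes (percent, y axis) in each of 30 hashtag groups, by library, with low and high immediate-early sets marked. Group 5 of each control library (34.9% and 38.0%) lies above the other 3 groups of its library, at 16.4 to 22.8%.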

How the data were processed

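The values are UMI counts per gene and barcode, which the authors made with Cell Ranger 6.1.2 on mm10 per the labels and deposited as unfiltered matrices, with hashtag counts beside the genes. Cells were called in Python 3.11.15 (numpy 2.4.6, scipy 1.17.1, pandas 2.3.3) from an expected 3000 cells by an order-of-magnitude cutoff, with other barcodes of at least 500 UMIs tested against the ambient profile (1000 simulations, FDR 0.01), and barcodes with fewer than 200 genes or over 5% mitochondrial UMIs were dropped. Cell types were marker gates of at least 3 markers. Cells fitting several gates were left out of types, no doublet caller was run, and 4669 cells with several hashtags stayed in the library sums. Shares used types with at least 20 cells in a library, the fits 13 types of a chosen list with at least 20 cells in each library, and the phase balance those with at least 50 UMIs of S and G2/M members. The members and lists were chosen with earlier results of these data known.

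Counts summed per type and library were fitted in R 4.3.3 with edgeR 4.0.16 (quasi-likelihood test, TMM, filterByExpr, genotype plus treatment) and with DESeq2 1.42.0 as an alternative, with Benjamini-Hochberg adjustment over all genes of a type at 0.05. Leaving a treatment's library out leaves 1 library for that treatment, which is assumed to vary like the others. For genotype, such a fit rests on the libraries of the other treatments, whichever genotype's library is left out. On simulated counts for the genotype contrast in CD8 T cells (7222 genes), 88% of 2-fold and 100% of 4-fold changes were recovered, with 2.08% false calls. These values describe that 1 comparison only. Recovery and false calls in the other types, among them B cells, and in the treatment contrasts were not tested. Orders of types, phase balance and hashtag groups were compared with exact permutation tests. Genes were named by rule: the most abundant in each role, with Mki67, Top2a and Pcna, and up to 5 members with the smallest adjusted p in each contrast. The further B cell calls, the low-abundance exceptions and the related genes were named after their values were seen. Intervals cover counting error only. Thinning left out between 313 and 1287 cells per library. Alternatives covered the member threshold, depth, gates, hashtags, immediate-early sets, filters and single libraries.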

Additional observations from a re-analysis of the deposited data

Results flagged for a closer look

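Hashtag group 5 of the App NL-G-F control library stood apart from the other 3 groups of that library, with 38.0% of all cells holding at least 3 members. Hashtag group 5 of the WT control library did so too, with 34.9%. These were 2 of 16 sets of at least 4 hashtag groups tested by Dixon's criterion, which flags about 1 in 20 by chance. Both groups were rich in precursor gates, as given above, and the part of that in the share was not tested.

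In mature lymphocytes the share moved in opposite directions in acute colitis, by 7.30 percentage points over control in WT mice and by −4.85 points in App NL-G-F mice. The difference between the genotypes was not tested. The WT value was 3.72 points without hashtag group 7 of WT acute colitis, which had 33 mature lymphocytes (33.3% with at least 3 members), and 1.43 points (95% interval −0.51 to 3.39, counting error only) over whole libraries. With at least 5 members required the WT difference was −0.19 points, and after thinning to 1500 UMIs it was −2.47 points.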

How the results depend on the processing

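No paired analysis was possible because no group had replicate numbers to pair by, and the additive fit already compares treatments within genotype. The numbers of members called over all types were 3 for genotype, 21 for acute colitis, 5 for chronic colitis and 1 for food allergy. Each percentage after a count is the share of all genes called under the same setting. By DESeq2, genotype (0.173%) and food allergy (0.0933%) had 0. Without a filter on low counts they were 27 (0.982%), 59 (1.31%), 71 (1.20%) and 28 (0.683%). Within the low immediate-early set, where 2 types could be fitted, each was 0 (0.103%, 1.07%, 0.0368% and 0.0221%), and within the high set chronic colitis had 50 (2.59%) and food allergy 17 (0.716%). Without hashtag group 5 of WT control, acute colitis had 8 (0.494%) and food allergy 3 (0.297%), and without group 5 of both controls acute colitis had 10 (0.771%), chronic colitis 27 (0.935%) and food allergy 2 (0.361%). With 1 more marker chronic colitis had 3 (0.235%) and food allergy 2 (0.222%), and with exactly 1 hashtag food allergy had 2 (0.274%). Leaving out single libraries gave 1 (0.161%, without WT acute colitis) to 31 (0.472% and 0.477%, without either chronic colitis library) for genotype, 28 of those 31 in monocytes. It gave 9 (0.750%, without App NL-G-F acute colitis) to 32 (1.58%, without App NL-G-F control) for acute colitis, 5 (0.206% and 0.209%, without either food allergy library) to 39 (0.827%, without App NL-G-F chronic colitis) for chronic colitis, and 0 (0.0240%, without WT food allergy) to 8 (0.199% and 0.879%, without either control library) for food allergy. The causes were not tested.

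Log2 fold changes in B cells in acute colitis reversed within the high set for Anln (1.55), Birc5 (0.99), Ccna2 (0.65), Ccnb1 (2.51), Ccnb2 (0.72), Cdk1 (0.38), Cenpa (0.18), Cenpe (0.0484), Cenpf (1.47), H2afx (0.57), Kif11 (0.75), Kif23 (0.76), Mki67 (0.14), Nusap1 (1.27), Prc1 (1.35), Rrm2 (0.91), Stmn1 (0.91), Top2a (1.22), Tpx2 (0.58) and Ube2c (1.60). Without group 5 of both controls they reversed for Anln (0.0175), Birc5 (0.0741), Ccnb1 (0.43), Cenpf (0.24), H2afx (0.0831), Kif23 (0.20), Nusap1 (0.47), Prc1 (0.65), Rrm2 (0.25), Stmn1 (0.16), Top2a (0.38), Tpx2 (0.22) and Ube2c (0.30). Cdkn1a in ILC2 in acute colitis reversed within the low set (2.78).

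With at least 20 cells per library, 4 types passed for the S to G2/M balance in place of 7. Erythroid and neutrophil precursors then had 6 and 7 libraries in place of 8, whereas γδ T cells had 7 in both. The balance of types that had not passed reversed over all cells in CD4 T cells (0.0795) and macrophages (0.30), with 5 members in monocytic precursors (0.0038) and pro-B and large pre-B cells (0.11), and with 1 more marker in type 2 dendritic cells (0.10) and macrophages (0.27). Share differences over all cells in WT acute colitis reversed with 5 members (−3.12), after thinning (−5.75) and over whole libraries (−1.003), and in mature lymphocytes with 5 members (−0.19) and after thinning (−2.47). WT food allergy reversed with 2 members (−1.79), within the low set (−7.44) and in 2 of 7 values that each left out 1 hashtag group (−0.14 and −0.84), all 7 running from −0.84 to 6.01. App NL-G-F food allergy reversed within the low set (−3.56) and in 4 of 8 such values, all 8 running from −0.78 to 4.65. None of these share differences had passed a test.

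Type 2 dendritic cells numbered 34 to 135 per library, and the part of cell numbers in their calls was not tested. In mature neutrophils, where the module was low, 7 members were tested after the filter on low counts.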

Other observations

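NK cells, cytotoxic innate lymphocytes, had no member called in the contrasts above when all libraries and hashtag groups were used. In WT mice their summed CPM of the module was 1150 under control, 769 with acute colitis, 1981 with chronic colitis and 1885 with food allergy, and in App NL-G-F mice 1361, 1064, 1454 and 1554 in the same order. Both acute colitis libraries were below both controls, and the 4 libraries of chronic colitis and food allergy were above them. By edgeR 0 of 37 members and 0 of 8832 genes were called in each treatment contrast. At an unadjusted p under 0.05 there were 15 members in chronic colitis (6.49% of all genes), 12 in food allergy (5.56%) and 8 in acute colitis (4.86%). The median log2 fold change of the members was 0.66, 0.54 and −0.42 in the same order, against 0.00232, 0.00265 and 0.0121 for all genes, and the 3 contrasts share their controls.

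Ung, the uracil glycosylase, had the lowest r with the other members. It was at 55.9 CPM in pro-B and large pre-B cells and at 0.14 CPM in immature neutrophils, where Ube2c was at 237 ± 88.4 CPM.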
